A study of Mus musculus with 4 samples.

Results

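The genes described here are 48 genes of mitosis and the spindle checkpoint, chosen by name and without kinesins apart from Cenpe, whose product is itself a kinesin-like motor. They were read in skeletal stem cells (SSCs), bone-forming progenitors isolated from mice aged 4 to 6 weeks and embedded in 3D collagen gel for a culture of 48 h. The groups were wild type (Mmp14+/+, 2 arrays) and Mmp14 knockout (Mmp14-/-, 2 arrays), where Mmp14 encodes MT1-MMP, a membrane-bound protease that cleaves collagen. The labels do not name the strain, the deleted part of the gene, or whether replicates were separate animals or cultures, so p-values measure only the spread between these arrays, which may be technical. The stated purpose was a screen for transcriptional changes between the genotypes. Of the 48 genes, 46 had a probe set of their own, out of 22180 genes so measured. Each of the 46 had a single such probe set. Ccnb1 had none, and the probe set of Ncapg is shared with Lcorl. Top2a and Nusap1 also have probe sets shared with Taf1d and with Oip5, which were not used. Genes were tested when the mean of the 4 arrays was at least 2.34 log2, the median of all probe sets, which 45 of the 46 reached, among 12708 genes in all. Cenpk was below it, at 2.06 to 2.15 log2 in the 4 arrays.

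In mitosis, cyclin B with its kinase Cdk1 starts chromosome condensation and spindle building, and Aurora and Polo kinases drive the steps that follow. The spindle checkpoint holds back the anaphase-promoting complex (APC/C) with Cdc20 until every kinetochore is attached to microtubules. The APC/C then marks cyclins and securin for destruction, sister chromatids part, and the cell divides. Most of these genes are transcribed late in the cell cycle, so their RNA is scarce in cells that have stopped dividing. In resting cells the MuvB core with Rb-related proteins keeps many of them off, and in dividing cells MuvB with B-Myb and FoxM1 turns them on. MuvB binds a promoter element called the cell cycle genes homology region (CHR), and the factor NF-Y binds CCAAT boxes near it.

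RefSeq promoter windows of GRCm38.p6, from 250 bases before the start to 50 after it, were matched for 41 of the 48 genes. They were searched on both strands for the CHR letters TTTGAA and TTCGAA, for CCAAT, and for the E2F site letters TTTCCCGC and TTTGGCGC. TTCGAA reads alike on both strands, and none of the motifs contains another. The 5 windows below belong to genes that were lower in knockout and hold a CHR match within 50 bases of the start that ends no more than 10 bases past it. They are shown because they hold the elements by which mitotic genes are known to be switched together. Capitals mark CHR and CCAAT letters, which read TTCAAA and ATTGG where the match is on the other strand.
Ccnb2, chr9:70421545-70421684, minus strand: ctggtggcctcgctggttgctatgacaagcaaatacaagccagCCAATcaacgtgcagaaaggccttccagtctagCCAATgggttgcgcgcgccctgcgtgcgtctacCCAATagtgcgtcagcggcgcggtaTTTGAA
Cdc20, chr4:118437344-118437473, minus strand: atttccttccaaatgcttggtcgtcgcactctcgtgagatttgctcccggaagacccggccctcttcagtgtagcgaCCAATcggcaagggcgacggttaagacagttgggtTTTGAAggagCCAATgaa
Ube2c, chr2:164769799-164769928, plus strand: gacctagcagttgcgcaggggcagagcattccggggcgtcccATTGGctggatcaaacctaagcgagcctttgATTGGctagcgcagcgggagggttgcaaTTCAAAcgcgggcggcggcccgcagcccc
Prc1, chr7:80294321-80294451, plus strand: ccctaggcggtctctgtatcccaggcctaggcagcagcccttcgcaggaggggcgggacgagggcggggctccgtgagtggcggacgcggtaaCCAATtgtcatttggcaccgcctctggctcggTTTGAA
Top2a, chr11:99024190-99024319, minus strand: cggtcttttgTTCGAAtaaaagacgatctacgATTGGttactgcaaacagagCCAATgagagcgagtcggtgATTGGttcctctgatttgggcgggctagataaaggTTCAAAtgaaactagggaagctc
The Ccnb2 window shows 3 CCAAT boxes, 33 bases from one to the next, followed by a CHR whose first base is base 5 of the transcript. In Cdc20 the CHR starts 18 bases before the start and lies between 2 CCAAT boxes. In the bases printed for Ube2c both elements are on the other strand.

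CHR letters were found for 29 of the 41 genes (70.7%), against 21.7% of the 27025 genes with a promoter window and 16% of the 9963 of these that were tested on the arrays. Within 50 bases of the start, a window chosen after seeing the data, 26 of the 41 genes held them (63.4%), against 6.12% of all genes with a window. CCAAT was found for 32 of the 41 (78%), against 41.1% of all and 42.3% of those tested on the arrays. Counted by window, 69.6% of the 46 windows of these genes and 19.2% of all 32851 windows held a CHR, and 80.4% and 37.4% held CCAAT. Both were found in 1 window for 27 of the 41 genes (65.9%), against 8.61% of all. E2F letters were found for 2 of the 41 (4.88%), against 1.8% of all and 3.38% of those tested on the arrays. Of the 16 matched genes called lower in knockout 12 held a CHR, and so did 16 of the 22 tested but not called. The histogram of positions shows the CHR matches gathered around the start and CCAAT matches before it. These are matches of letters and were given no test.

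**Figure D1:**
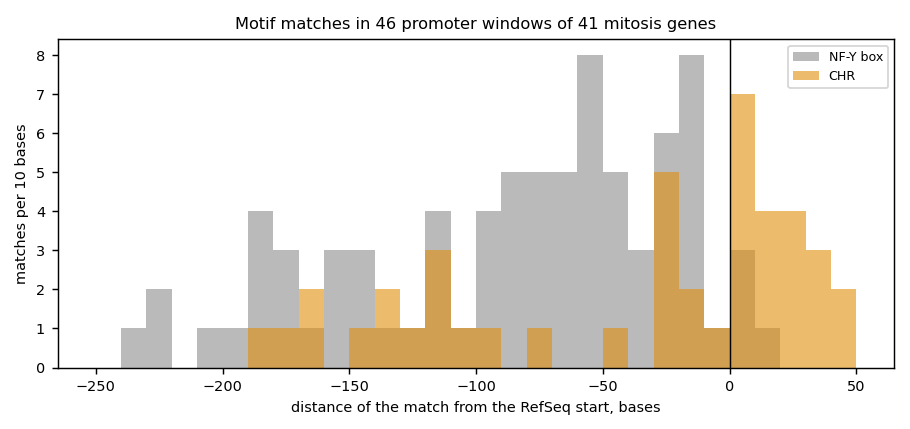
Number of CHR (orange) and NF-Y box (grey) matches per 10 bases against distance from the RefSeq start, in 46 windows of 41 mitosis genes, both strands; the few genes with several overlapping windows count more than once. Of the 43 CHR matches 29 lie within 50 bases of the start, and of the 80 NF-Y box matches 4 begin after it.

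The mitosis genes were lower in knockout as a body. Of the 45 tested, 19 fell and 0 rose (limma, Benjamini-Hochberg adjusted p below 0.05 over all 12708 genes), or 42.2%, where 5.12% of all tested genes fell and 6.2% rose. At an unadjusted p below 0.05, 36 were lower and 0 higher, where 1712 of all 12708 tested genes were lower and 1788 higher. Changes, given throughout as the knockout mean less the wild-type mean in log2 units, had a median of −0.62 over the 45 genes and of −0.0041 over all tested genes. The 19 fell to between 43.2% and 72.3% of the wild-type level, or 1.38-fold to 2.31-fold lower. Both knockout arrays lay below both wild-type arrays in 40 of the 45, against 29.8% of all tested genes, and above them in 2, against 28%. A change below 0 was seen in 43 of the 45, against 50.6% of all tested genes. Just outside the threshold, 6 genes had an adjusted p from 0.05 to 0.06: Racgap1, Aurkb, Incenp, Cenpe, Bub1b and Birc5. The wild-type signal alone carried Birc5 and Nusap1 over the limit for testing, and without these 2 genes 18 of 43 were called, with a median of −0.62. Of the 19 calls, 13 were kept without a filter on dim genes (lost were Ect2, Top2a, Ncapd2, Nuf2, Spc25 and Cdca8), and 0 when every probe set of the table was put in 1 limma fit, where 33 of 46 were lower at an unadjusted p below 0.05 and the lowest adjusted p was 0.0591.

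The shift was seen between any 2 arrays of different genotype. The median level of the 45 genes was 4.94 log2 in wild type replicate 1, 4.70 in wild type replicate 2, 4.17 in knockout replicate 1 and 4.28 in knockout replicate 2, while the median of all tested genes lay between 5.32 and 5.37 in the 4 arrays. Of the 4 pairs of a knockout and a wild-type array, the smallest median difference was −0.44, with 41 of 45 genes lower, and the largest was −0.87. The genes also moved together within a genotype, by less. Wild type replicate 1 was above replicate 2 in 35 of the 45 (77.8%, against 56.6% of all tested genes), by a median of 0.15. Knockout replicate 2 was above replicate 1 in 39 of the 45 (86.7%, against 51.1%), by a median of 0.12. Without knockout replicate 1, the array with the lowest levels, 7 genes were called, and without wild type replicate 1, 2 or knockout replicate 2 the counts were 13, 21 and 17. Some of these counts include genes not called with all 4 arrays, and some calls made with all 4 arrays were lost. In whole cultures, fewer dividing cells and less of each RNA per cell cannot be told apart.

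**Figure D2:**
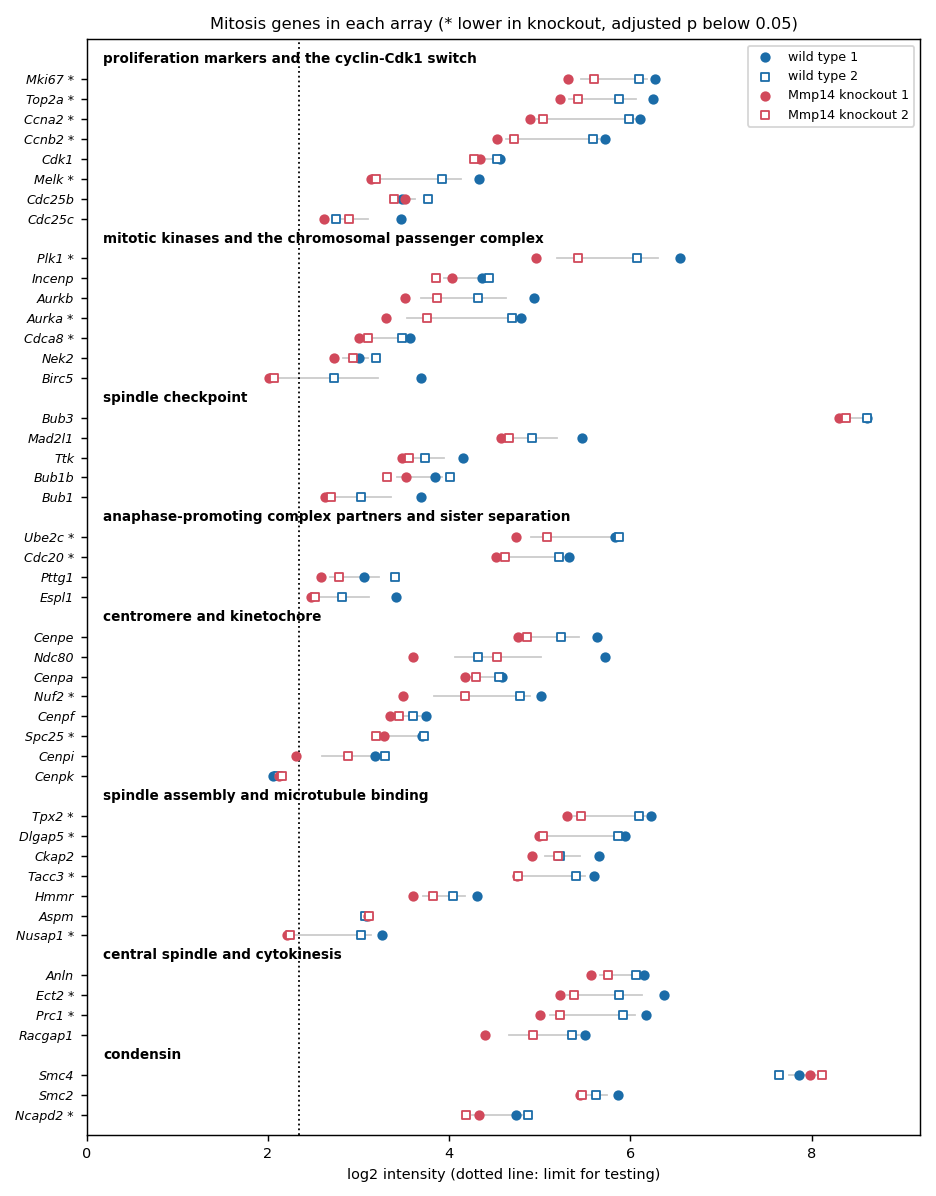
Log2 intensity of each of 46 mitosis genes in the 4 arrays, grouped by role, with wild type in blue and Mmp14 knockout in red, replicate 1 as filled circles and replicate 2 as open squares, and a grey line joining the group means. In 40 of the 45 tested genes both red points lie left of both blue points, and stars mark the 19 called lower.

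Mmp14 itself was at 8.77 and 8.83 log2 in wild type and at 5.77 and 5.84 in knockout (−2.99, limma adjusted p = 0.000278). Sex markers differed between the same arrays: Xist, expressed from the inactive X chromosome, was 0.73 higher in knockout and the Y-linked Eif2s3y 0.69 lower on the log2 scale (limma adjusted p = 0.0155 and 0.0474). The Xist call was lost without knockout replicate 1, and that of Eif2s3y without either knockout array or wild type replicate 1 (adjusted p up to 0.0801 and 0.176). The Y-linked Kdm5d and Uty were not called, at −0.42 and −0.25 (limma adjusted p = 0.104 and 0.52), and for Uty the groups overlapped. Of the mitosis genes Cenpi is X-linked. Of 12 SSC and stromal markers 11 were measured and all 11 passed the limit for testing, with a mean level of 7.55 and 7.60 log2 in wild type and 7.88 to 7.98 in knockout. Pdgfra, Cxcl12, Cd200 and Nt5e rose and Lepr fell. Of 54 markers of other cell types 48 were measured and 18 passed the limit. These were all 5 pericyte and smooth muscle markers, the macrophage genes Cd68, Csf1r and Lyz2, the osteoclast genes Acp5 and Ctsk, the muscle genes Pax7 and Ckm, Epor and Itga2b of the erythroid and megakaryocyte list, S100b and Ngfr of the Schwann and neural list, the lymphocyte gene Ighm and the endothelial gene Vwf. The leukocyte gene Ptprc, the myogenic genes Myod1 and Myf5 and all 6 granulocyte and progenitor markers were among those that did not. Of the 18, the pericyte gene Mcam and the muscle stem cell gene Pax7 rose by 0.69 and 1.31 and the pericyte gene Rgs5 fell by 1.07 on the log2 scale. At an unadjusted p below 0.05, 3 were lower (Rgs5, Acp5 and Lyz2) and 3 higher (Mcam, Pax7 and S100b). Over all 12708 tested genes these counts were 1712 and 1788. Acp5 differed by −0.56 and S100b by 1.02 (limma adjusted p = 0.0528 and 0.0604). The other tested osteoclast gene, Ctsk, differed by 0.17, and the other tested Schwann and neural gene, Ngfr, by 0.057. Sox10 of the Schwann and neural list was below the limit for testing. It read 2.21 and 2.29 log2 in wild type against 1.81 and 1.73 in knockout. The mean level of the 8 macrophage and leukocyte markers was 2.52 to 2.58 log2 in wild type and 2.42 to 2.48 in knockout, that of the 6 osteoclast markers 2.83 to 2.92 and 2.67 to 2.84, and that of the 3 measured Schwann and neural markers 2.90 to 3.08 and 3.13 to 3.25. The part of sex and of other cells in the lower mitosis genes was not tested.

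Proliferation markers and the cyclins that drive mitosis fell. Of 8 tested, 5 fell and 3 were not called, with a median of −0.73. Cyclin A2 (Ccna2), which acts from S phase into mitosis, was at 6.11 and 5.99 log2 in wild type and at 4.89 and 5.04 in knockout. The groups stood about 1 log2 unit apart and it fell by 1.08 (SE 0.113, limma adjusted p = 0.00409), to a level 2.11-fold lower. Cyclin B2 (Ccnb2), a partner of Cdk1, was at 5.71 and 5.59 in wild type and at 4.53 and 4.72 in knockout, and fell by 1.03 (SE 0.12, limma adjusted p = 0.00557). Mki67, which encodes the Ki-67 antigen that coats mitotic chromosomes and is stained to count cycling cells, was at 6.28 and 6.09 in wild type and at 5.31 and 5.60 in knockout. Top2a, the topoisomerase that untangles sister DNA, was at 6.24 and 5.87 against 5.23 and 5.42. The 2 genes fell by similar amounts, 0.73 and 0.74 on the log2 scale (limma adjusted p = 0.0269 and 0.0365). Probe sets shared by Top2a and Taf1d differed by less, −0.45 and −0.41, and cannot be assigned to either gene. Melk, a kinase gene of dividing cells, was at 4.33 and 3.92 in wild type and at 3.14 and 3.19 in knockout, a fall of 0.96 (limma adjusted p = 0.0156). Cdk1, the kinase that the cyclins activate, did not follow them to the same extent: it was at 4.56 and 4.52 in wild type and at 4.34 and 4.28 in knockout. Its difference of −0.23 (95% interval −0.48 to 0.016) was not called. The phosphatases that activate Cdk1 were not called either, with Cdc25b at −0.17 and Cdc25c at −0.35, and for both the groups overlapped. The calls of Ccna2 and Ccnb2 held on leaving out any 1 array. That of Mki67 was lost when knockout replicate 1 (adjusted p = 0.116) or either wild-type array (0.0812 for replicate 1, 0.0502 for replicate 2) was left out. Top2a lost its call without either knockout array (0.137 for replicate 1, 0.0549 for replicate 2) or wild type replicate 1 (0.0805), and Melk without knockout replicate 1 (0.0509).

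Among the mitotic kinases and the chromosomal passenger complex, 3 of 7 fell and 4 were not called, with the lowest median of any role (−0.94). Aurka, the kinase of centrosomes and spindle poles, was at 4.79 and 4.70 log2 in wild type and at 3.31 and 3.76 in knockout. Its fall of 1.21 (SE 0.167, limma adjusted p = 0.00982), 2.31-fold, was the largest of the 45 genes. Plk1, the Polo kinase of mitotic entry and spindle building, was at 6.54 and 6.07 in wild type and at 4.95 and 5.42 in knockout, and fell by 1.12 (SE 0.215, limma adjusted p = 0.0262). In both genes knockout replicate 1 was clearly lower than knockout replicate 2, and both were below wild type. The passenger complex joins the kinase Aurkb with Incenp, Birc5 and Cdca8 and corrects faulty attachments to the spindle. Cdca8, its borealin subunit, was at 3.57 and 3.48 in wild type and at 3.00 and 3.10 in knockout (−0.47, limma adjusted p = 0.0424). The other subunits did not pass the test, though both knockout arrays were below both wild-type arrays in each (29.8% of all tested genes). Aurkb was at 4.94 and 4.31 against 3.51 and 3.87 (limma adjusted p = 0.0552). Incenp, the scaffold, differed by −0.46 (0.0558). Birc5, which encodes survivin, was at 3.69 and 2.73 against 2.02 and 2.07 (0.0583), so that its wild-type arrays lay further apart from each other than the nearer one did from knockout. Nek2, a centrosome kinase, differed by −0.27. Aurka kept its call without any 1 array, Plk1 lost it without wild type replicate 1 (adjusted p = 0.0696) or knockout replicate 1 (0.0711), and Cdca8 lost it whichever array was left out (0.11 and 0.0837 without wild type replicate 1 and 2, 0.217 and 0.114 without knockout replicate 1 and 2).

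The spindle checkpoint genes differed by less and none of the 5 was called by limma. All 5 were lower at an unadjusted p below 0.05, as were 1712 of all 12708 tested genes. Both knockout arrays lay below both wild-type arrays in all 5, against 29.8% of all tested genes. Bub3, which carries the checkpoint proteins to kinetochores, was at 8.62 log2 in both wild-type arrays and at 8.30 and 8.38 in knockout (−0.28, limma adjusted p = 0.145). Mad2l1, which encodes Mad2, the protein that binds and holds Cdc20, was at 5.47 and 4.92 against 4.57 and 4.66 (−0.58, limma adjusted p = 0.113). The wild-type arrays of Mad2l1 were 0.55 log2 apart while the knockout arrays nearly coincided. Bub1 and Bub1b, checkpoint kinases of the kinetochore, differed by −0.70 and −0.50, and Ttk, the Mps1 kinase at the top of the checkpoint, by −0.42.

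Of the 4 genes that act with the APC/C or at sister separation, 2 fell. Cdc20, the APC/C activator that the checkpoint restrains, was at 5.32 and 5.21 log2 in wild type and at 4.51 and 4.61 in knockout, a fall of 0.70 (SE 0.108, limma adjusted p = 0.0134). Ube2c, the ubiquitin-conjugating enzyme of the APC/C, was at 5.83 and 5.87 against 4.74 and 5.08, a fall of 0.94 (SE 0.14, limma adjusted p = 0.0123). In both genes the gap between the groups was wider than the spread within either. Pttg1, securin, and Espl1, the separase it inhibits, differed by −0.55 and −0.62 and were not called. Ube2c kept its call without any 1 array, and Cdc20 lost it without knockout replicate 1 (adjusted p = 0.073). Of 17 tested subunits and regulators of the APC/C 0 were called by limma, where 5.12% of all tested genes fell. At an unadjusted p below 0.05, 3 were lower and 0 higher, against 1712 and 1788 of all 12708 tested genes. The median of the 17 was −0.063. The largest difference in that list was −0.48, for the APC/C inhibitor Fbxo5 (limma adjusted p = 0.0682).

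Among 7 tested genes of the centromere and kinetochore, 2 fell. Both encode subunits of the NDC80 complex, the main microtubule holder of the kinetochore. Nuf2 was at 5.01 and 4.78 log2 in wild type and at 3.49 and 4.17 in knockout, and fell by 1.07 (SE 0.23, limma adjusted p = 0.0381). Spc25 was at 3.70 and 3.72 against 3.28 and 3.20, and fell by 0.47 (SE 0.102, limma adjusted p = 0.0395). Ndc80, the subunit the complex is named for, was at 5.72 and 4.31 against 3.60 and 4.53. Its difference of −0.95 was as large as that of called genes, but the groups overlapped and its 95% interval ran from −2.17 to 0.26. Cenpa, the histone that marks the centromere, differed by −0.33, Cenpf by −0.28, Cenpe by −0.62 and Cenpi by −0.64. The 4 were not called, with limma adjusted p from 0.0558 for Cenpe to 0.168 for Cenpf. Cenpk, below the limit for testing, read 2.06 and 2.11 in wild type against 2.12 and 2.15 in knockout. Nuf2 lost its call without knockout replicate 1 (adjusted p = 0.0664) or either wild-type array (0.111 for replicate 1, 0.079 for replicate 2), and Spc25 without any of wild type replicates 1 and 2 (0.0849 and 0.105) or knockout replicates 1 and 2 (0.136 and 0.18). In the wider list of other kinetochore and centromere genes, 3 of 25 fell (12%, against 5.12% of all tested genes). In that list 0 rose and the median was −0.38. Cenpn, which reads the centromeric nucleosome, fell by 0.84 (limma adjusted p = 0.0146). Pmf1 and Cenpm fell by 0.54 and 0.47 (limma adjusted p = 0.0239 and 0.045), and their calls were lost on leaving out any 1 of the 4 arrays (0.0633 to 0.133 and 0.0994 to 0.207).

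Spindle assembly genes fell in 4 of 7 cases. Dlgap5, a microtubule-bundling protein also called HURP, was at 5.94 and 5.86 log2 in wild type and at 4.99 and 5.04 in knockout. It fell by 0.89 (SE 0.103, limma adjusted p = 0.0054), and in both genotypes the replicates lay within 0.1 log2. Tpx2, which activates Aurora A on the spindle, was at 6.23 and 6.09 against 5.29 and 5.46, a fall of 0.79 (limma adjusted p = 0.0123). Tacc3, which links kinetochore fibres, was at 5.60 and 5.40 against 4.75 and 4.76, a fall of 0.74 (limma adjusted p = 0.0135). Nusap1, a microtubule stabilizer near chromosomes, was at 3.25 and 3.02 against 2.21 and 2.25 and fell by 0.91 (limma adjusted p = 0.00824). Because the knockout signal of Nusap1 lay below the limit for testing, the size of its fall is uncertain. A probe set shared by Nusap1 and Oip5 read 2.08 and 1.71 in wild type against 1.87 and 1.46 in knockout. There the groups overlapped, and the signal cannot be assigned to either gene. Hmmr, a spindle protein first known as a hyaluronan receptor, differed by −0.46 and Ckap2 by −0.38, and neither was called. Aspm, a spindle pole protein, stood apart from the rest at 3.08 and 3.07 in wild type against 3.10 and 3.12 in knockout. Its difference of 0.038 (95% interval −0.21 to 0.28) became −0.031 after quantile normalization. Dlgap5 and Nusap1 kept their calls without any 1 array, while Tpx2 and Tacc3 lost theirs without knockout replicate 1 (adjusted p = 0.0605 and 0.0586).

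All 4 genes of the central spindle and cytokinesis were lower at an unadjusted p below 0.05, as were 1712 of all 12708 tested genes. Of the 4, 2 were called. Prc1, which bundles the microtubules between the parting chromosomes, was at 6.17 and 5.92 log2 in wild type and at 5.003 and 5.23 in knockout, and fell by 0.93 (SE 0.139, limma adjusted p = 0.0125). Ect2, the exchange factor that switches on RhoA at the cleavage site, was at 6.37 and 5.88 against 5.22 and 5.38, and fell by 0.82 (SE 0.178, limma adjusted p = 0.0384). Racgap1, a subunit of the centralspindlin complex and a partner of Ect2, was at 5.50 and 5.36 against 4.39 and 4.92 (−0.77, limma adjusted p = 0.0527). Anln, anillin, the scaffold of the contractile ring, differed by −0.45 (0.0629). In each of the 4 genes both knockout arrays lay below both wild-type arrays, against 29.8% of all tested genes. Prc1 kept its call without any 1 array, and Ect2 lost it without wild type replicate 1 (adjusted p = 0.0662), knockout replicate 1 (0.127) or knockout replicate 2 (0.0614).

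Condensin genes were mixed. Condensin, the ring complex that compacts chromosomes, is built on the ATPases Smc2 and Smc4. Smc4 was at 7.86 and 7.64 log2 in wild type and at 7.98 and 8.12 in knockout, so that both knockout arrays lay above wild type. Its difference of 0.30 (95% interval −0.0097 to 0.60) was not called. Its partner Smc2 was at 5.86 and 5.62 against 5.44 and 5.46, a difference of −0.29 that was not called. Ncapd2, a subunit of condensin I, was at 4.74 and 4.87 against 4.33 and 4.18 and fell by 0.55 (SE 0.115, limma adjusted p = 0.0353). The call of Ncapd2 was lost whichever array was left out (adjusted p = 0.0566 and 0.107 for wild type replicates 1 and 2, 0.0862 and 0.155 for knockout replicates 1 and 2). The probe set shared by Ncapg and Lcorl read 3.97 and 3.76 in wild type against 3.26 and 3.62 in knockout, and cannot be assigned to either gene. Of 4 other condensin genes 1 fell, where 5.12% of all tested genes fell. This was Ncapg2 (−0.48, limma adjusted p = 0.0436), whose call was lost on leaving out any 1 of the 4 arrays (0.0685 to 0.178).

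**Figure D3:**
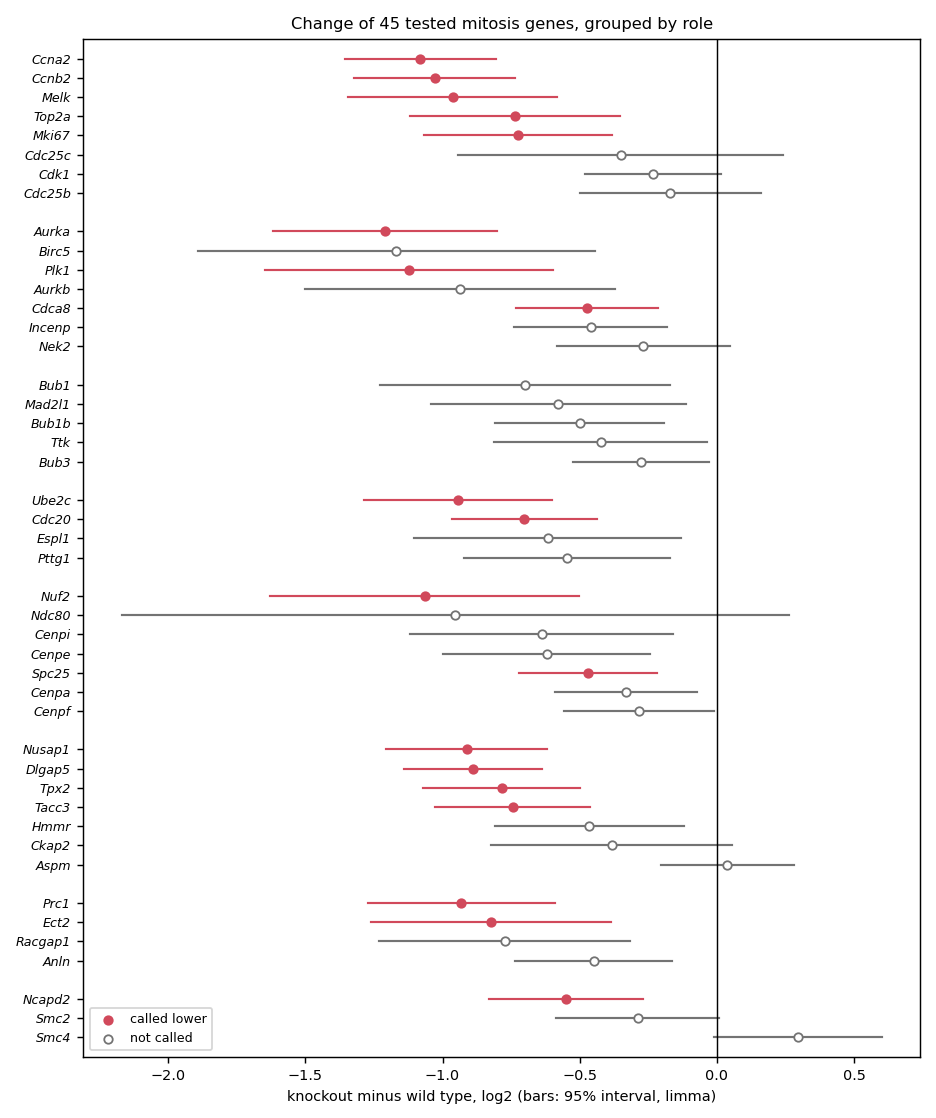
Knockout minus wild type (log2) of the 45 tested mitosis genes with 95% intervals from limma, in the order of roles in the text; filled red points were called lower. The intervals of 36 genes lie below 0, and Smc4 and Aspm are the 2 genes with a value above 0.

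The signal of a probe set depends on its probes as well as on the RNA, so signals of different genes do not rank their expression. Calls were made among dim and bright probe sets: 12 of the 20 genes with a mean signal of at least 4.76 log2, the stricter of the limits tried for dim genes, were called, and 7 of the other 25. The median change was −0.74 in the first and −0.50 in the second, and the difference between them was not tested. Bub3 and Smc4, whose probe sets gave the highest signals of the 45, were not called.

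**Figure D4:**
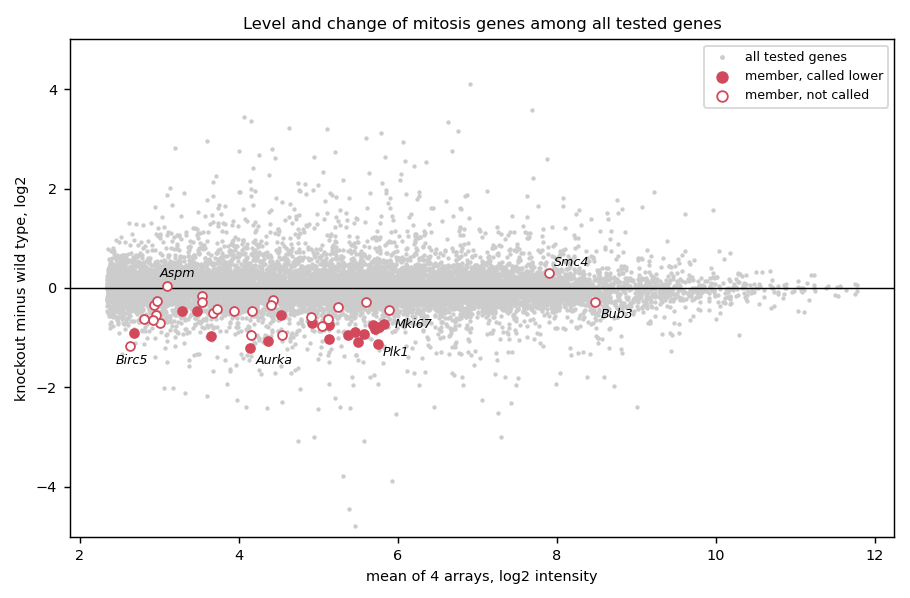
Knockout minus wild type (log2) against the mean log2 intensity of 4 arrays for 12708 tested genes (grey) and the 45 tested mitosis genes (red, filled when called lower). The mitosis genes lie below 0 apart from Aspm and Smc4, and their largest fall, 1.21 for Aurka, is well inside the range of all genes.

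The 9 other cell cycle lists held 161 tested genes, of which 31 fell (19.3%, against 5.12% of all tested genes), 1 rose and 129 were not called, with a median of −0.24. Of 11 mitotic kinesins, motors of the spindle, 6 fell and 0 rose, with a median of −0.74. Kif2c fell by 1.002, Kif11 by 0.86 and Kif22 by 0.83 (limma adjusted p = 0.00999, 0.00945 and 0.00749). Of 24 other regulators of mitotic entry and exit 9 fell and 0 rose, with a median of −0.51. They included Cks2, a small subunit that docks on Cdk1 (−1.23, limma adjusted p = 0.00707), Iqgap3 (−1.20) and Fam83d, a spindle protein (−0.98). Of 31 DNA replication and S phase genes 8 fell and 0 rose, with a median of −0.32. One of them, Fen1, passed the limit for testing through its wild-type mean of 2.68 log2 and had a knockout mean of 2.14. Rrm2, which makes deoxynucleotides, fell by 1.03 and cyclin E1 (Ccne1), which starts S phase, by 0.81 (limma adjusted p = 0.0124 and 0.00745). Kif2c, Kif11, Kif22, Cks2, Iqgap3, Fam83d, Rrm2 and Ccne1 each kept the call without any 1 array. Kif18b (−0.96), Cdc45 (−0.62) and Pole (−0.51) were also called, but not in every fit that left out 1 array. In those fits Kif18b ranged from −1.13 to −0.80, Cdc45 from −0.71 to −0.53 and Pole from −0.53 to −0.50. Of 14 tested cohesin genes, whose products hold sisters together, 0 were called by limma. That count is near the 5.12% of all tested genes that fell, and the cohesin median was 0.074. Of the 14 differences 3 were below 0, the lowest being −0.57 for Cdca5 (limma adjusted p = 0.0568). Esco1, Nipbl and Stag2 differed by 0.30, 0.27 and 0.25. At an unadjusted p below 0.05, 1 was lower and 0 higher, against 1712 and 1788 of all 12708 tested genes. The differences between lists were not tested.

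Of 22 tested regulators of cell cycle transcription 2 fell and 0 rose, with a median of −0.13. That is 9.09%, near the 5.12% of all tested genes that fell. Of the 22, 8 were lower and 0 higher at an unadjusted limma p below 0.05, against 1712 and 1788 of all 12708 tested genes. E2f4 and E2f8 differed by −0.56 and −0.49 and were not called (limma adjusted p = 0.054 and 0.0715). E2f7, a repressor that is itself made in S phase, fell by 0.83 (limma adjusted p = 0.00809). Mybl2, which encodes B-Myb, fell by 0.65 (0.0484), with the call lost without wild type replicate 1 or either knockout array (up to 0.188). Foxm1, the activator of late cell cycle genes, was at 4.33 and 4.20 log2 in wild type and at 3.87 and 3.89 in knockout and was not called (−0.39, limma adjusted p = 0.0728). Of 13 tested D cyclins, their kinases and CDK inhibitors 1 rose and 2 fell, where 6.2% of all tested genes rose and 5.12% fell. Cdkn1c, which encodes the CDK inhibitor p57, was at 6.71 and 6.56 in wild type and at 7.82 and 7.91 in knockout, a rise of 1.23 (SE 0.111, limma adjusted p = 0.00243), 2.35-fold. It was the only one of the 161 genes that rose. The CDK inhibitor gene Cdkn2b, p15, was at 8.72 and 8.98 against 7.67 and 7.35, and fell by 1.34 (SE 0.154, limma adjusted p = 0.00531). Cyclin D1 (Ccnd1), which passes growth signals to the cell cycle, fell by 0.53 (limma adjusted p = 0.0304), a call lost on leaving out any 1 of the 4 arrays (0.0731 to 0.149). Cdkn1a, which encodes p21, was at −0.19 and Cdkn1b, which encodes p27, at 0.32, and neither was called. Foxm1, Cdkn1a and Cdkn1b were named for their known roles after their values were seen.

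**Figure D5:**
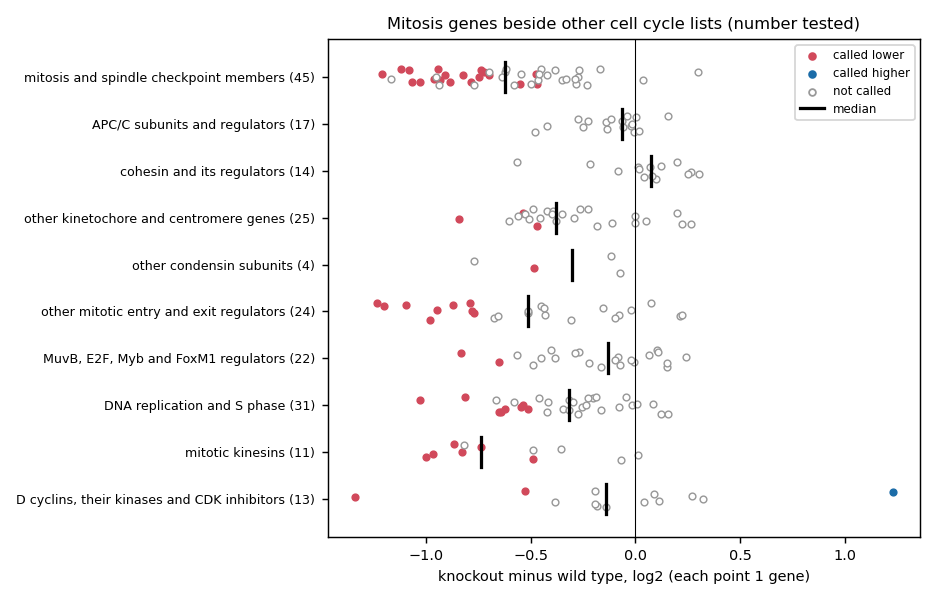
Knockout minus wild type (log2) of each tested gene in the mitosis set and in 9 other cell cycle lists, with red for called lower, blue for called higher, open for not called and a black bar at each median. The mitosis genes and the mitotic kinesins have the lowest medians, −0.62 and −0.74, and cohesin has a median of 0.074.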

How the data were processed

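Expression was measured on 4 arrays of SSC RNA, 2 wild type and 2 Mmp14 knockout; the design text names Affymetrix arrays. The authors deposited log2 intensities, in a table of 41345 probe sets by 4 arrays. Per the submitters' processing notes the tools were oligo and limma, and how they were used is not given in the sources used here; the log2 scale was read from the values (0.43 to 12.2). The number of arrays limits the precision.

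Symbols came from GEO's platform annotation: 23521 probe sets had 1 symbol, 1814 several and 16010 none. Where a gene had several probe sets, the brightest over the 4 arrays was used. All tested genes were fitted together in R 4.3.3 with limma 3.58.1 (lmFit, eBayes, two-sided, 2 residual degrees of freedom, no block), with Benjamini-Hochberg adjustment and calls at an adjusted p below 0.05.

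The genes, lists and rules were chosen with earlier results of these data known. Values per array are given for every called mitosis gene and, in roles with fewer than 2 called, for the genes with the highest signal. Of each other list up to 4 genes with the smallest adjusted p were to be named, with values per array for a few. Alternatives covered filters, normalization, eBayes settings, array weights, probe sets, thresholds, the replicate block and leaving out each array.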

Additional observations from a re-analysis of the deposited data

How the results depend on the processing

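The median change of the mitosis genes stayed below 0 in every fit run, from −0.82 to −0.55 on leaving out 1 array. The number called lower was 7 to 21 on leaving out 1 array, 11 with the replicate block, 0 with every probe set in 1 fit and 3 when trend and robust eBayes were added to that fit, which was chosen after seeing the data. It was 5 at an adjusted p below 0.01 and 30 below 0.1. Under quantile normalization, centring on array medians and array weights it was 24, 23 and 20, and all 19 genes kept their calls. Over all genes 1439 were called, against 687 to 1131 on leaving out 1 array, 459 at an adjusted p below 0.01, 2365 below 0.1, and 188 and 450 in the fits of every probe set. The other cell cycle lists had 31 genes called lower, against 13 to 32 on leaving out 1 array, 16 under the stricter filter, and 0 and 1 in the fits of every probe set (61 of 170 lower at an unadjusted p below 0.05 in the first). Small values changed sign: Cdc25c ranged from −0.71 to 0.0068 and Ncaph2 from −0.25 to 0.10 on leaving out 1 array, and Aspm was −0.031 after quantile normalization. The cause of these changes was not tested. Deviations of same-numbered arrays correlated at −0.04 over all tested genes, so the numbers were not treated as pairs; whether same-numbered arrays share an origin is not known.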
